A study of Mus musculus with 6 samples.

Results

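The 7 genes described here are the corticosteroid receptors of the colon epithelium and genes through which they act: Nr3c1 (glucocorticoid receptor), Nr3c2 (mineralocorticoid receptor), Hsd11b2, Sgk1, Nedd4l, Tsc22d3 and Fkbp5. They were chosen by symbol, as the hormone-inactivating enzyme and direct targets of the receptors beside the receptors themselves, and each was read from its only probe set that names a single gene. All 7 were measured, among 19936 genes in all. Affymetrix arrays measured total RNA of colon epithelium from male C57BL/6J mice aged 8 weeks, with 3 arrays of wild type mice and 3 of mice labelled Sel1L-delta-IEC. In the latter, Cre driven by the villin-1 promoter removed the floxed exon 6 of Sel1l from intestinal epithelial cells, so any other cells of the preparation kept the gene. The floxed line had been freed of its lacZ-neo cassette with FLPe, and the Cre line had been backcrossed to C57BL/6J. The labels do not say whether the wild type mice carried floxed alleles or Cre, nor whether the 3 arrays of a group came from different mice. The p-values therefore measure only the spread between these arrays, which may be technical.

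Corticosteroids enter cells and bind receptors held ready by the Hsp90 chaperone machinery, and the hormone-bound receptors move to the nucleus and bind DNA. In the distal colon, aldosterone acts on the mineralocorticoid receptor to raise sodium uptake and potassium secretion, and the enzyme encoded by Hsd11b2 inactivates glucocorticoids, which would otherwise occupy that receptor. The kinase encoded by Sgk1 phosphorylates Nedd4-2, the ubiquitin ligase encoded by Nedd4l that removes the epithelial sodium channel from the membrane, and so retains the channel. Tsc22d3 encodes GILZ, a mediator of glucocorticoid action, and Fkbp5 encodes FKBP51, an Hsp90 cochaperone that lowers the hormone affinity of the receptor and is itself induced by glucocorticoids.

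Levels are RMA values on the log2 scale, and differences are knockout minus wild type with the moderated standard error (SE) of limma. Array medians lay between 6.32 and 6.36, and each of the 7 genes had a mean above them. Sel1l, the deleted gene, was at 9.55 ± 0.11 in wild type and 8.81 ± 0.22 in the knockout (SD, n = 3 each), and each knockout array was below each wild type array. All 11 measured markers of colon epithelium had means above the array medians, against 1 of 9 for lymphocytes, 2 of 10 for myeloid cells, 5 of 8 for fibroblasts, 1 of 6 for smooth muscle, 1 of 6 for endothelium and 0 of 4 for enteric nerve and glia. Of the markers of other cells, 1 was called, the neutrophil marker Ly6g, whose family holds similar genes, at 11.93 ± 0.20 in wild type and 10.84 ± 0.30 in the knockout (SD, n = 3 each). The call was lost in 4 of 6 fits with an array left out (limma's adjusted p up to 0.0643). The neutrophil markers S100a8 and S100a9 lay under the array medians and differed by 0.21 each, uncalled, and 7 of the 10 myeloid markers had positive differences (median 0.058). The part of these markers in the results was not tested. Genes are named as called where the p-value of limma, adjusted over all genes, was under 0.05. This held for 1.63% of all genes, with 0.918% higher and 0.712% lower in the knockout.

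None of the 7 genes was called in limma's test. At an unadjusted p under 0.05 there were 2, Nr3c2 and Hsd11b2, both with lower levels in every knockout array than in any wild type array. Lower values without overlap between the genotypes occurred in 7.98% of all genes and higher ones in 11.4%. At that unadjusted p, 5.62% of all genes were lower and 7.72% higher. The other 5 genes overlapped between genotypes. Over all 7, 4 differences were positive and 3 negative, and the median was 0.0047, against 0.018 over all genes. In whole epithelium, fewer cells that express a gene and less of its RNA per cell cannot be told apart.

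The mineralocorticoid receptor gene Nr3c2 read 10.09, 10.14 and 9.96 in wild type arrays 1 to 3 and 9.79, 9.88 and 9.71 in knockout arrays 1 to 3. The lowest wild type array lay 0.088 above the highest knockout array. The means were 10.07 ± 0.092 and 9.79 ± 0.085 (SD, n = 3 each), a difference of -0.28 ± 0.074 (SE), or 1.21-fold higher in wild type. Its 95% confidence interval ran from -0.45 to -0.11, with limma's adjusted p = 0.135 over all genes and an exact two-sided permutation p = 0.1, the smallest that 3 arrays against 3 allow. With an intensity trend in limma's variance prior the adjusted p was 0.0497, the only alternative under which any of the 7 genes was called.

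The glucocorticoid receptor gene Nr3c1 showed no such separation. It read 8.48, 8.55 and 8.21 in wild type and 8.43, 8.48 and 8.34 in the knockout, and the knockout arrays lay within the wild type range. The difference was 0.0047 ± 0.094 (SE), with limma's adjusted p = 0.989 and a 95% interval from -0.21 to 0.22. On the linear scale this interval spans a level of 0.864 to 1.16 times that of wild type, so a true change within that span remains possible. The means were 8.41 ± 0.18 in wild type and 8.42 ± 0.068 in the knockout (SD, n = 3 each).

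Since both receptors were read on the same arrays, their log2 values were subtracted within each array. The size of such a difference depends on the probes, so only its change between genotypes can be read. Nr3c2 minus Nr3c1 was 1.62, 1.59 and 1.76 in wild type and 1.36, 1.40 and 1.36 in the knockout. The knockout arrays thus stood closer together (SD 0.022) than the wild type arrays (SD 0.088), and the groups did not overlap. The change was -0.28, and it lay between -0.31 and -0.23 with each array left out in turn. This pair was chosen after the values were seen, so the change is a description with no test.

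**Figure D1:**
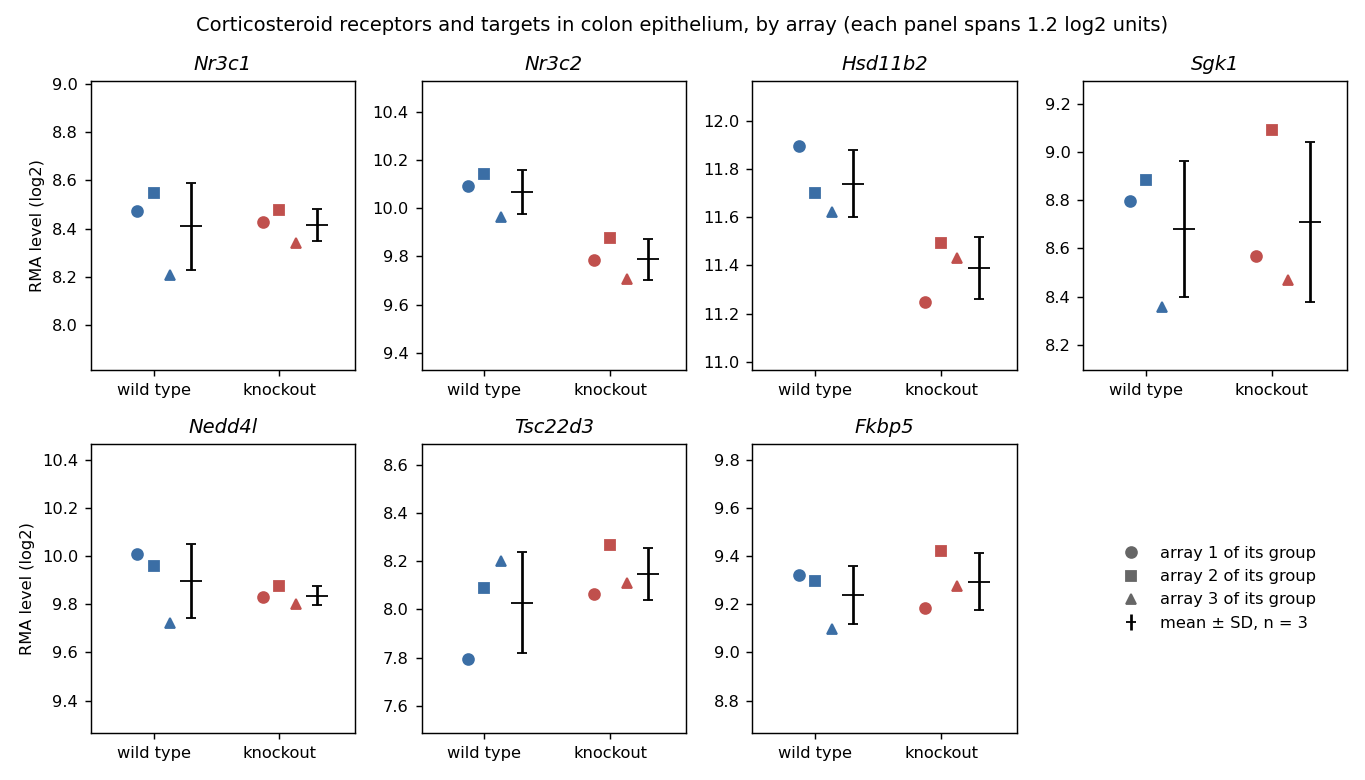
RMA log2 level (vertical axis, each panel spanning the same range) of the 7 genes in wild type (blue) and knockout (red) arrays, with symbols for the array number and black bars for mean ± SD of 3 arrays. Nr3c2 and Hsd11b2 separate by genotype, and the other 5 genes overlap, with Sgk1 the widest spread, from 8.36 to 9.09.

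Hsd11b2, the enzyme that shields the mineralocorticoid receptor, read 11.89, 11.70 and 11.62 in wild type and 11.25, 11.49 and 11.43 in the knockout. The genotypes did not overlap, with a gap of 0.13 between the lowest wild type and the highest knockout array. The means were 11.74 ± 0.14 and 11.39 ± 0.13 (SD, n = 3 each), a difference of -0.35 ± 0.093 (SE), or 1.27-fold higher in wild type. The 95% interval ran from -0.56 to -0.13, with limma's adjusted p = 0.139 and an exact permutation p = 0.1. Among the 11 epithelial markers, Epcam and Cdh1 each differed by -0.23, Slc26a3 by -0.36 and Muc2 by -0.040 with no overlap between genotypes, Cdx2 by 0.28 with no overlap, and none was called. The choice of these 5 markers followed their values. Of the 11, 5 differences were positive and 6 negative, with a median of -0.040. Over all genes, 7.98% were lower and 11.4% higher without overlap. The part of the markers in the lower receptor and enzyme readings was not tested.

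Hsd11b2 and Nr3c2 were lower by like amounts. Within arrays, Hsd11b2 minus Nr3c2 was 1.80, 1.56 and 1.66 in wild type and 1.46, 1.62 and 1.73 in the knockout, and the groups overlapped. The change of -0.070 was smaller than the SD of either group, at 0.12 and 0.13. Hsd11b2 minus Nr3c1, in contrast, went from 3.33 ± 0.15 to 2.98 ± 0.14 (SD, n = 3 each), a change of -0.35 with no overlap. These pairs too were formed after the values were seen.

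Sgk1, the kinase gene that aldosterone and glucocorticoids induce, varied more between arrays than any other of the 7. It read 8.80, 8.88 and 8.36 in wild type and 8.57, 9.09 and 8.47 in the knockout. Knockout array 2 was the highest of all and wild type array 3 the lowest, so the range within the knockout, 0.62, was far wider than the difference of 0.030 ± 0.18 (SE) between means. Limma's adjusted p was 0.964, and the 95% interval spanned 0.764 to 1.37 times the wild type level. A true change within that span remains possible. The interval is not a limit of detection, since a call needed an adjusted p under 0.05 over all genes.

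Both receptors bind as dimers to a palindromic hormone response element, and a window before Sgk1 holds a match to it. The element was searched as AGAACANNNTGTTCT, which reads the same on both strands, in the 250 bases before each transcription start in the RefSeq promoter table (GRCm38.p6). Of 32851 such windows, 3 hold it, or 0.00913%. The table has windows for 4 of the 7 genes (Nr3c2, Sgk1, Tsc22d3 and Fkbp5), and Sgk1 is the only one of these with the full element. Its 6-base arm, AGAACA or on the other strand TGTTCT, alone occurs in 16.1% of all windows. Of 6 Sgk1 starts in the table, numbered along the gene, start 5 holds the element between 189 and 175 bases before the start, at chr10:21993701-21993715, 965 bases before start 6. The 4 windows below show the element (Sgk1), the arm alone (start 3 of Tsc22d3) and neither (Nr3c2, Fkbp5), each 5′ to 3′ on the gene's strand with matches of the element or the arm in capitals. The Sgk1 window holds the arm once more, 242 bases before the start. A match describes the letters of a window and is no measurement of binding, and the array gives a single value for Sgk1, not a value for each start. Only these 250 bases were searched, so a window without a match does not show that the gene lacks an element.

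Sgk1, start 5, chr10:21993640-21993889, plus strand: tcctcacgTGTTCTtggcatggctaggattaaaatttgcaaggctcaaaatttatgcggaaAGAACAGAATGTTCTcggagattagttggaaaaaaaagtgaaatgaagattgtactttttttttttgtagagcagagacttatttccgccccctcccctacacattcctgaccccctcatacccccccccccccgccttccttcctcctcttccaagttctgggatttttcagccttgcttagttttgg

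Tsc22d3, start 3, chrX:140600523-140600772, minus strand: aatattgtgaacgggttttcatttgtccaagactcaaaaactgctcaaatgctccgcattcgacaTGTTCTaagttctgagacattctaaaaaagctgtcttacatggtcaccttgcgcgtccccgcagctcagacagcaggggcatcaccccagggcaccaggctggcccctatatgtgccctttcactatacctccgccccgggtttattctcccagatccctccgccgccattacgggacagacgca

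Nr3c2, chr8:76902080-76902329, plus strand: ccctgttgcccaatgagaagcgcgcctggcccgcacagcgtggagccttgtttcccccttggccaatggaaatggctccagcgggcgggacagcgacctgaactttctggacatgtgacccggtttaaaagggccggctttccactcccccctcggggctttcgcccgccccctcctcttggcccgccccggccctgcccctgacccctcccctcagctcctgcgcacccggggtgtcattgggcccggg

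Fkbp5, chr17:28486150-28486399, minus strand: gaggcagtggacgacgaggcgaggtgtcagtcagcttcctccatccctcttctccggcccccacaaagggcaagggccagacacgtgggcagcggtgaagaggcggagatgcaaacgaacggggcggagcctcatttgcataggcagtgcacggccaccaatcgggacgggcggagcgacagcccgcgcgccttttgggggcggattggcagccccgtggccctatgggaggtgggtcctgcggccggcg

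Of the 4 genes shown, Sgk1, Tsc22d3 and Fkbp5 overlapped between wild type and knockout, and Nr3c2 did not. Among the windows not shown, starts 1 and 4 of Sgk1 hold the arm alone. Its starts 2, 3 and 6 and starts 1 and 2 of Tsc22d3 hold no match. The part of a match in the genotype values was not tested. GC content of the windows shown was 44.8% for Sgk1, 52.4% for Tsc22d3, 68.4% for Nr3c2 and 68.0% for Fkbp5. A looser form, GNACANNNTGTNC, is in 0.387% of all windows, and in a window of 119 of 27025 genes. Every match of the full element also fits it. Among the 4 genes it is only in Sgk1, at the same site as the full element.

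Nedd4l, the ligase gene downstream of Sgk1, read 10.01, 9.96 and 9.72 in wild type and 9.83, 9.88 and 9.80 in the knockout. The knockout arrays lay inside the wild type range and close together (SD 0.038, against 0.15 in wild type). The difference was -0.061 ± 0.083 (SE), with limma's adjusted p = 0.821 and a 95% interval from -0.25 to 0.13.

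Tsc22d3, which encodes GILZ, read 7.79, 8.09 and 8.20 in wild type and 8.06, 8.27 and 8.11 in the knockout. Wild type array 1 stood below the other 5 arrays, which were interleaved. The difference was 0.12 ± 0.11 (SE), with limma's adjusted p = 0.712 and a 95% interval from -0.13 to 0.37. Without wild type array 1 it was 0.0028, so the positive value rested on that array.

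Fkbp5 read 9.32, 9.30 and 9.10 in wild type and 9.19, 9.42 and 9.27 in the knockout, with the groups interleaved. The difference was 0.055 ± 0.087 (SE), with limma's adjusted p = 0.849 and a 95% interval from -0.14 to 0.25. On the linear scale the interval covers 0.905 to 1.19 times the wild type level.

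**Figure D2:**
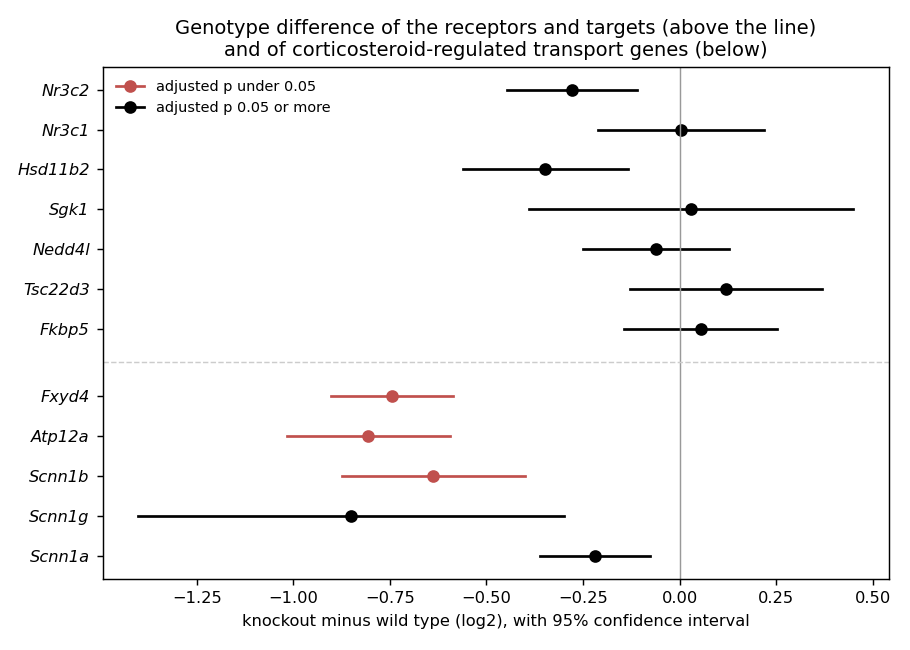
Knockout minus wild type (log2, horizontal axis) with limma's 95% confidence interval for the 7 genes, above the dashed line, and for 5 transport genes under corticosteroid control, below it, with called genes in red. The 5 transport genes were picked from 23 measured, of which 18 had negative differences and 5 positive ones. The intervals of Nr3c2 (-0.45 to -0.11) and Hsd11b2 (-0.56 to -0.13) lie below 0 without a call after adjustment, those of the other 5 genes span 0, and Fxyd4, Atp12a and Scnn1b are called.

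The arrays differed from each other in a way that many of these genes shared. In wild type, array 3 was the lowest for 6 of the 7 genes, Tsc22d3 being the exception, while it was the lowest wild type array for 30.5% of all genes. In the knockout, array 2 was the highest for all 7, against 34.0% of all genes. Sgk1 had the largest deviations, 0.40 above its mean in knockout array 2 and 0.34 below it in wild type array 3. Without wild type array 3 the differences of Nr3c1, Sgk1 and Fkbp5 became -0.097, -0.13 and -0.016, and without knockout array 2 they were -0.026, -0.16 and -0.0087. Nr3c1 was also -0.0007 without knockout array 1, and none of these was called. The signs of these 3 differences thus rested on single arrays, whereas Nr3c2 stayed between -0.33 and -0.24 and Hsd11b2 between -0.41 and -0.27 with each array left out.

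**Figure D3:**
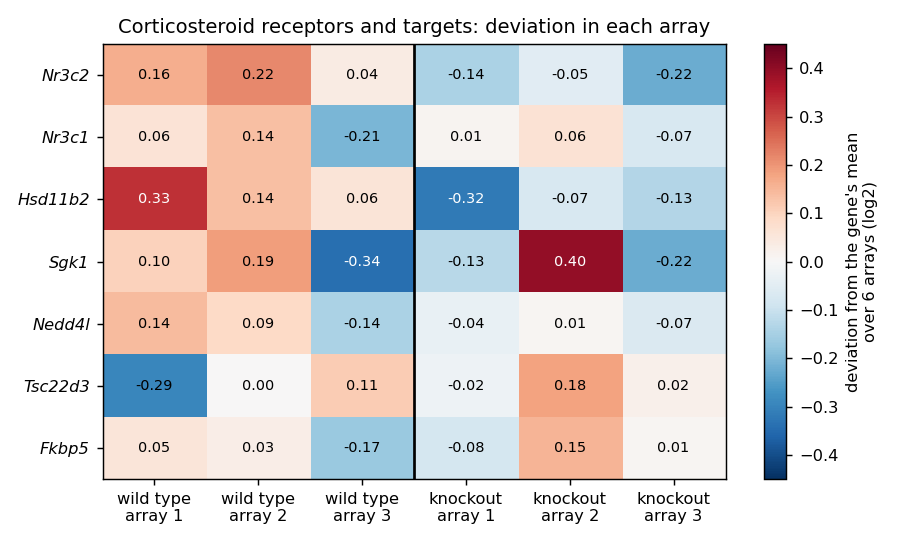
Deviation of each gene (rows) from its own mean over 6 arrays, in log2 units, for each array (columns), red above and blue below the mean. Nr3c2 and Hsd11b2 are red in every wild type array and blue in every knockout array, while Sgk1 is 0.40 in knockout array 2 and -0.34 in wild type array 3.

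Other genes known to be induced by glucocorticoids in many tissues did not move together. Of 26 measured genes of this list, 1 rose and none fell, where 0.918% and 0.712% of all genes did. The gene that rose was the metallothionein gene Mt1, which metals also induce, from 10.35 ± 0.051 to 12.21 ± 0.024 (SD, n = 3 each). The metallothionein gene Mt2, named after its values were seen, read 10.79, 10.62 and 10.80 in wild type and 11.32, 11.42 and 10.24 in the knockout. It was not called (limma's adjusted p = 0.753). At an unadjusted p under 0.05, 4 were higher and 3 lower, where 7.72% and 5.62% of all genes were. The median difference was 0.032, against 0.018 over all genes. After Mt1 the smallest p-values belonged to the sulfotransferase gene Sult1a1 (-0.41 ± 0.095), the mTORC1 inhibitor gene Ddit4 (0.35 ± 0.087) and the transcription factor gene Zbtb16 (-0.21 ± 0.063), with limma's adjusted p of 0.0880, 0.107 and 0.183. These lay in both directions. Clock and phosphatase genes often used to read acute glucocorticoid action, Per1 (0.11) and Dusp1 (0.038), were named after their values were seen and were not called, nor was Klf9 (-0.010).

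Transport genes under mineralocorticoid control, and their regulators, include the epithelial sodium channel and the pumps of the colon. Of 23 measured, 3 fell, where 0.712% of all genes did, and none rose. The list's median difference was -0.061 against 0.018 over all genes, and 8 had an unadjusted p under 0.05, all lower, where 5.62% of all genes were. This list, like the others, was chosen with earlier results of these data known, so its counts are a description and no test. Fxyd4 encodes the corticosteroid-induced regulator of the sodium pump known as CHIF. It read 7.43, 7.58 and 7.60 in wild type and 6.73, 6.80 and 6.83 in the knockout, with a clear gap between the groups. It fell by 0.75 ± 0.069 (SE) on the log2 scale, or 1.68-fold, with limma's adjusted p = 0.0049. Atp12a, the colonic proton-potassium pump, fell by 0.81 ± 0.092 (SE) on the log2 scale (adjusted p = 0.0080), and both calls held with each array left out.

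The sodium channel has 3 subunits, and the array read all of them. Scnn1b fell by 0.64 ± 0.10 (SE) on the log2 scale (adjusted p = 0.025), a call kept only without knockout array 2 when arrays were left out, with adjusted p otherwise up to 0.109. Scnn1a read 10.89 ± 0.051 in wild type and 10.67 ± 0.057 in the knockout (SD, n = 3 each), a difference of -0.22 ± 0.062 (SE) that was not called (limma's adjusted p = 0.158). Scnn1g, named after its values were seen, read 7.22, 7.18 and 7.47 in wild type and 5.86, 6.99 and 6.46 in the knockout. Its difference of -0.85 ± 0.24 (SE) was not called (limma's adjusted p = 0.158), and its knockout arrays were widely spread. The mean deviation of the 23 genes from their own means was 0.076, 0.092 and 0.11 in wild type arrays and -0.15, -0.019 and -0.11 in knockout arrays, with knockout array 2 nearest to wild type.

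**Figure D4:**
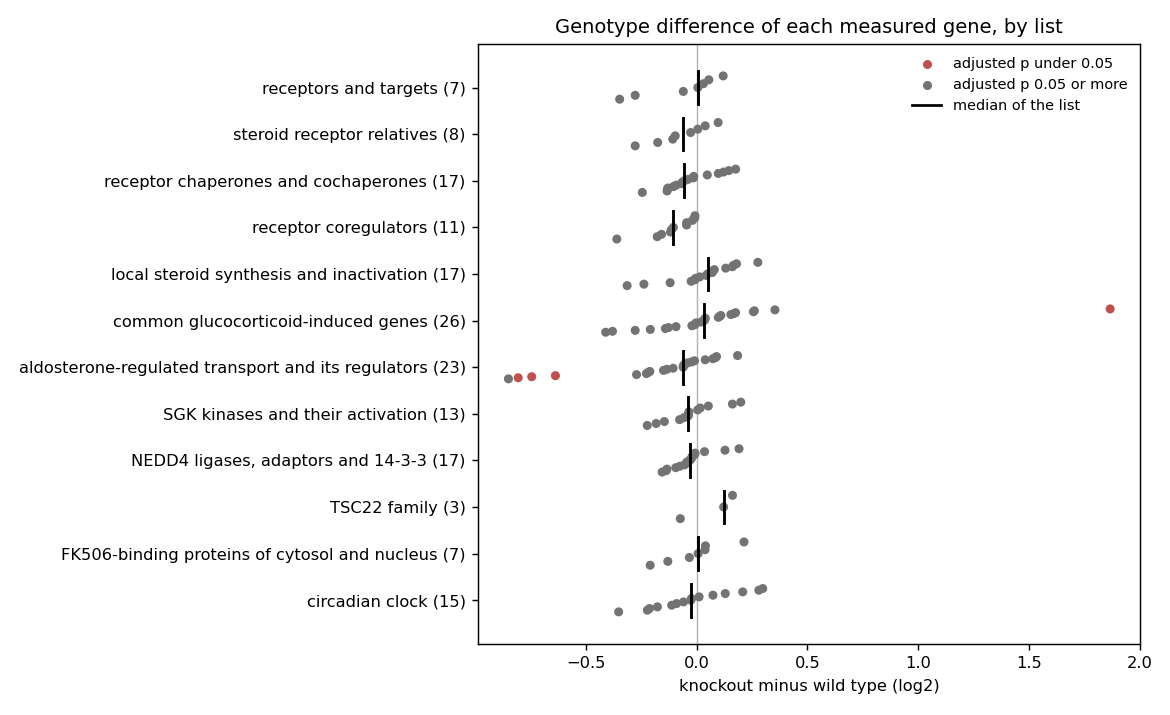
Knockout minus wild type (log2, horizontal axis) of every measured gene, in rows by list with the number measured in brackets, called genes in red and a black bar at each list's median. Called genes are confined in these lists to Mt1 (1.87) among glucocorticoid-induced genes and to Fxyd4, Atp12a and Scnn1b among transport genes.

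The receptor machinery gave no called gene. Among Hsp90 chaperones and cochaperones, 17 were measured, with a median of -0.056. At an unadjusted p under 0.05, where 7.72% of all genes were higher and 5.62% lower, none of them was lower and 1 gene was higher. That gene was Stub1, the chaperone-bound ubiquitin ligase CHIP, which read 8.93, 8.89 and 8.96 in wild type and 9.09, 9.15 and 9.08 in the knockout (limma's adjusted p = 0.229). Hsp90aa1 (-0.25), the cochaperone gene Bag1 (0.14) and St13 (-0.13) followed. Among 11 coregulators all differences were negative, as were those of 42.8% of all genes, and the median was -0.11. Of these, 3 were lower at an unadjusted p under 0.05 and 5 without overlap, against 5.62% and 7.98% of all genes. The acetyltransferase gene Ep300 (-0.18), the coactivator genes Ncoa1 (-0.16) and Ppargc1a (-0.36) and the corepressor gene Nrip1 (-0.11) had the smallest p-values, with limma's adjusted p from 0.244 to 0.455.

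Relatives of the receptors were not called either, with 8 measured and a median of -0.062. Besides Nr3c2, the orphan receptor gene Esrrg differed by -0.18 ± 0.076, the oestrogen receptor gene Esr1 by -0.11 ± 0.068 and the progesterone receptor gene Pgr by 0.096 ± 0.071 (SE). For local steroid synthesis and inactivation, a list of enzymes with regulators, the cholesterol carrier Star and transporters, 17 genes were measured and 7 had means above the array medians. None was called. At an unadjusted p under 0.05, 2 were higher and none lower, where 7.72% and 5.62% of all genes were. Those 2, Cyp21a1 (0.18) and Cyp11b2 (0.17), and Cyp11b1 (0.16) all read below 6 on the log2 scale in each array, under the array medians. The steroid exporter gene Abcb1a differed by -0.31 ± 0.14 (SE). Hsd11b1, which regenerates glucocorticoids and was named after its values were seen, read 4.52 ± 0.13 in wild type and 4.51 ± 0.15 in the knockout (SD, n = 3 each), also under the medians.

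Around Sgk1, 13 kinases, activators and substrates were measured and none was called, with a median of -0.037. The kinase substrate gene Ndrg1 (0.20 ± 0.065) and the paralog Sgk3 (0.16 ± 0.062) were higher and the transcription factor gene Foxo3 (-0.18 ± 0.067) lower at an unadjusted p under 0.05, and Rictor, of the complex mTORC2 that activates these kinases, differed by -0.15 ± 0.080 (SE). At that unadjusted p, 7.72% of all genes were higher and 5.62% lower. Sgk2, named after its values were seen, read 9.29, 9.48 and 8.68 in wild type and 8.80, 9.21 and 8.77 in the knockout. Like Sgk1 it was lowest in wild type array 3 within its group and highest in array 2 within the knockout.

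Around Nedd4l, 17 related ligases, adaptors and 14-3-3 proteins were measured. None was called, and the median was -0.032. At an unadjusted p under 0.05, 1 was higher and 2 lower, where 7.72% and 5.62% of all genes were. The higher one was the ligase gene Hecw1 (0.19), with means of 5.27 in wild type and 5.46 in the knockout, under the array medians. The lower ones were the ligase gene Wwp2 (-0.16) and the 14-3-3 gene Ywhah (-0.13). The ligase adaptor gene Ndfip2 (-0.14) followed. The relatives of GILZ, Tsc22d2 (0.16 ± 0.082), Tsc22d1 (0.12 ± 0.079) and Tsc22d4 (-0.074 ± 0.067, SE), were not called. Of 7 cytosolic and nuclear relatives of FKBP51, none was called, and Fkbpl (0.21), Fkbp3 (-0.21), Fkbp4 (-0.13) and Fkbp1a (0.039) had the smallest p-values. Fkbp4 encodes FKBP52, which competes with FKBP51 for the receptor complex.

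For Nr3c2 and Hsd11b2, whose genotypes did not overlap, the genes with the most alike profiles were sought among 9663 genes with a mean above the median gene. Likeness was the root mean square difference between profiles centred on their own mean over the 6 arrays. Nearest to Nr3c2 were Hspbap1 (0.023), the sulfate transporter gene Slc26a2 (0.027) and the brush border cadherin gene Cdhr5 (0.029). Their differences between genotypes were -0.27, -0.25 and -0.32, none called. Nearest to Hsd11b2 were Cyp4f16 (0.036), the phosphatase gene Ptprr (0.046) and Nlrp6 (0.047), an epithelial sensor of the microbiota, with differences of -0.39, -0.30 and -0.28, none called. A like profile over 6 arrays carries the genotype difference with it, so the sign of these differences follows from the search.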

How the data were processed

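The arrays measured total RNA of colon epithelium, 3 wild type and 3 knockout, grouped by the labels. Per the submitters' processing notes the authors used RMA, and the range of the deposited values shows a log2 scale. Which software, build and probe set definition they used is not given in the sources used here. Of 35556 probe sets, 21789 named 1 gene, 1621 several and 12146 none in the platform annotation, and symbols were updated through RefSeq (21698 by identifier, 3 by accession, 88 kept). Where several probe sets named a gene, that of highest mean was used (1001 genes, none of the 7), which gave 19936 genes with no filter. Genotypes were compared over all genes with limma 3.58.1 in R 4.3.3 (lmFit, eBayes, two-sided, Benjamini-Hochberg), tested on simulated data. Tables and plots used Python 3.11.15, pandas 2.3.3, scipy 1.17.1 and matplotlib 3.10.9.

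The genes and lists were chosen with earlier results of these data known. Of 11 lists around the receptors, called genes were named, and others by smallest p up to 4 per list. From 7 marker lists called genes were named. For genes without overlap the 3 nearest profiles were named, leaving out predicted genes. List genes with no single-gene probe set were left out. The fit was repeated with array weights, with an intensity trend or a robust prior, without moderation, with the replicate number as a block, after median centring or quantile normalization, without the 25% or 50% dimmest genes, on probe set means, on all probe sets and without each array. No batch was tested, since no scan date or slide was at hand. The number of arrays limits the precision.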

Additional observations from a re-analysis of the deposited data

How the results depend on the processing

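The direction of Nr3c2, Hsd11b2, Nedd4l and Tsc22d3 held in all 17 alternatives, and none of the 7 genes was called in 16 of them. Without wild type array 1, however, Nedd4l was only -0.0043 and Tsc22d3 only 0.0028. With an intensity trend 1 was called, Nr3c2 (-0.28, adjusted p = 0.0497), while Hsd11b2 had an adjusted p of 0.05003. Centring arrays on their medians turned Nr3c1 to -0.017. With each array left out, Nr3c1 ran from -0.097 to 0.074, Sgk1 from -0.16 to 0.15 and Fkbp5 from -0.016 to 0.11, which are changes of sign. Over all genes 325 were called, 69 to 303 with an array left out, 598 without the dimmest 50%, 614 with the trend, 93 with all probe sets adjusted together and 4 without moderation. Without moderation Fxyd4 and Atp12a lost their calls (adjusted p = 0.0960 and 0.147). Scnn1b lost its call without moderation, with all probe sets and with the replicate block (adjusted p up to 0.210), and Ly6g without moderation and with all probe sets (0.199 and 0.0653). Besides Nr3c2 and Arntl, some genes not called in the main fit were called in part of the 11 alternatives on all arrays. These were Cyp4f16 in 4, Cdhr5, Sult1a1 and Ddit4 in 2 each, and Scnn1a, Hspbap1 and Slc26a2 in 1 each. With an array left out, Sult1a1 was called in 1 of 6 fits and the others in none.

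The labels number the arrays in both groups. Deviations of same-numbered arrays from their group means correlated across genes, which are not independent replicates, at -0.10 to 0.15 over the 3 pairs. Of 3 knockout arrays, 2 correlated best with their own number. So few arrays cannot settle whether the numbers mark pairs. The main fit did not take them as pairs, and the fit with a replicate block did. With the replicate block 217 genes were called and none of the 7, and Nr3c2 had an adjusted p of 0.123.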

Other observations

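Clock genes, which share with corticosteroids a daily rhythm, gave no called gene among 15 measured. At an unadjusted p under 0.05, 3 were higher and 3 lower, where 7.72% and 5.62% of all genes were, and the median difference was -0.027. Arntl, which encodes the clock activator BMAL1, read 7.39 ± 0.10 in wild type and 7.04 ± 0.042 in the knockout (SD, n = 3 each) with no overlap, a difference of -0.35 ± 0.070 (SE) with limma's adjusted p = 0.051. This missing call depended on the fit, since Arntl was called in 6 of 11 alternatives on all arrays (adjusted p from 0.0181 to 0.191) and in 0 of 6 with an array left out (0.0681 to 0.178). The repressor genes Nr1d1 (-0.22 ± 0.067), Nfil3 (0.28 ± 0.087) and Bhlhe41 (0.30 ± 0.10, SE) followed, each without overlap between genotypes, as were 7.98% of all genes lower and 11.4% higher. Bhlhe41 read 3.65 ± 0.18 in wild type and 3.95 ± 0.10 in the knockout (SD, n = 3 each), under the array medians. The time of day at which tissue was taken is not in the labels, and its part in these values was not tested.

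The looser form of the response element is in a window of 2 of the 21 glucocorticoid-induced genes with a promoter entry, Mt1 and Fam107a. It is in a window of 119 of 27025 genes in all, and of 1 of the 8 colon epithelium markers with an entry, Epcam. Mt1 rose in the knockout, and Fam107a differed by -0.022 and was not called. The part of a match in these values was not tested.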
